A study of Caenorhabditis elegans with 2 samples.

Results

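A set of named DM domain genes of Caenorhabditis elegans, without dmd-8, was described in a chromatin immunoprecipitation sequencing (ChIP-seq) experiment on DMD-8. The set may not hold every gene of the family. Its genes were mab-3, mab-23, dmd-3, dmd-4, dmd-5, dmd-6, dmd-7, dmd-9 and dmd-10, 9 of 19973 protein-coding genes of the nuclear genome. They were chosen by name, and each was taken with its span in the Ensembl annotation of assembly WBcel235 (ce11) and 10 kb on each side, a window of 21283 to 34492 bp. The worms were of strain OP775, which carries the integrated transgene wgIs775, with dmd-8 fused to TY1, EGFP and 3xFLAG tags in a fosmid clone, together with unc-119(+) in an unc-119 (tm4063) background. Whole L4 larvae 48.5 hours old, synchronised by starvation at L1 after bleaching, were sonicated and precipitated with an antibody against GFP. There was 1 group, with 2 biological replicates. Places in the genome are compared rather than conditions, since a control list was not used here. A whole worm mixes all tissues, so occupancy in few cells and low occupancy in many cannot be told apart.

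DM domain proteins are zinc finger transcription factors named after Doublesex of Drosophila melanogaster and MAB-3 of C. elegans, and they act in sexual development across animals. In C. elegans, MAB-3 represses vitellogenin (yolk protein) genes in the male intestine and acts in the sensory rays of the male tail. Several others shape male structures or neurons that differ between the sexes.

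The conservative list, which the authors made from both replicates, held 1537 peaks. It placed 6 of them in the windows of 4 of the 9 genes, dmd-3, dmd-5, dmd-6 and dmd-10, and none in those of mab-3, mab-23, dmd-4, dmd-7 and dmd-9. Of the other 19963 genes, 26.4% had a conservative peak in a window with the same flanks. The share among the DM domain genes was 44.44%, with an exact (Clopper-Pearson) 95% interval of 13.7 to 78.8% that holds the background value. The thresholded list of replicate 1 had peaks near 3 of the genes against 12% of other genes, and that of replicate 2 near 3 against 11.2%. No conservative summit lay in the promoter window of any of the 9 (the 1000 bp before the annotated 5′ end and the 200 bp after it). That window held one in 2.55% of other genes, and 0 of 9 allows a share of up to 33.63% (exact 95% interval). Both intervals hold the background share, so with 9 genes neither share could be told apart from it.

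Each deposited list gives the authors' signal value for every peak. Signals are comparable within a list and not from one list to another, so ranks within each list are given beside them. The longer ranked lists also give the irreproducible discovery rate (IDR). It is low where a peak ranks both high and alike in the lists compared, so a peak that is weak in both can have a high IDR. The ranked lists held 95232 peaks for the pooled replicates, with a median signal of 27.09, and 82083 and 72371 for replicates 1 and 2. Of the pooled peaks, 4.958% had an IDR of 0.05 or less. Read depth is unknown from peak lists, so the number of peaks limits the precision, and the intervals given cover counting only.

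The sequences of 5 of the 6 conservative peaks are shown because the letters they hold are what the strongest peaks share. All are from the RefSeq genome sequence of the same assembly, 5′ to 3′. Capitals mark GTTCGANNC on either strand, the letters of part of the B box, an internal promoter element of transfer RNA (tRNA) genes. The first is the peak in the dmd-3 window, chrV:19643127-19643271, minus strand. The next are the upstream and the intronic peak at dmd-5, chrII:5782027-5782306 and chrII:5772823-5773102, both minus strand, of which the second holds 3 matches, 2 of them overlapping on opposite strands. The fourth is the upstream peak at dmd-10, chrV:13239808-13240087, minus strand. The last, upstream of dmd-6 at chrIV:14609838-14610117, plus strand, has no match and is shown for contrast.
dmd-3 peak: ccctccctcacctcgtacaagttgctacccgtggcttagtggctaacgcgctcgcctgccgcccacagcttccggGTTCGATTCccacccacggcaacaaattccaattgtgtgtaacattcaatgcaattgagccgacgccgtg
dmd-5 upstream peak: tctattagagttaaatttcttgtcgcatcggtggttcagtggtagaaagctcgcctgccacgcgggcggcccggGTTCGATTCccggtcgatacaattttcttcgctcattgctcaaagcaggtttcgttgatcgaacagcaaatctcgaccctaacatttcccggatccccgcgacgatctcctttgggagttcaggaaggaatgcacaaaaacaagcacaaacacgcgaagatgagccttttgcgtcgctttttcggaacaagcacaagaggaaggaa
dmd-5 intron peak: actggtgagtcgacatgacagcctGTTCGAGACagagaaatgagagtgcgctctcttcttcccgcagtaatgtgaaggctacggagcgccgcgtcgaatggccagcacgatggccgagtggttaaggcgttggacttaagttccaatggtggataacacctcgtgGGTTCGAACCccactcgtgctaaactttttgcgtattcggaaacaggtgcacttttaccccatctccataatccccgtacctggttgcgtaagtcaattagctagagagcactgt
dmd-10 upstream peak: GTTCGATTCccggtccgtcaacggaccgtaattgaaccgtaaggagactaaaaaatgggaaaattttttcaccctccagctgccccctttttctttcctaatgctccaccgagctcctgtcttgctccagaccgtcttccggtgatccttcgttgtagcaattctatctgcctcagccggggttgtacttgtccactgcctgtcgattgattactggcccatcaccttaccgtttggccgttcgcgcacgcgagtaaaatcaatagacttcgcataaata
dmd-6 upstream peak: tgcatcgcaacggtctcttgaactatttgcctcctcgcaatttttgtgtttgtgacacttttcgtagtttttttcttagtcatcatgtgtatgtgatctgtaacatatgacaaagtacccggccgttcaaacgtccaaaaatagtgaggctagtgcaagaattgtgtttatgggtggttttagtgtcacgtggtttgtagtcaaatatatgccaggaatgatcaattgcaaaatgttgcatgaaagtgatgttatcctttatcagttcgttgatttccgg

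Among the 6 conservative peaks, the 4 peaks with a match had pooled signals of 267.2 (dmd-3), 193.7 (dmd-5 upstream), 189.2 (dmd-10 upstream) and 108.4 (dmd-5 intron). The 2 without a match had 81.41 (dmd-6) and 78.01 (a second dmd-10 peak, in an intron). Across the whole conservative list, 19.78% of peaks held GTTCGANNC, against 2.918% of all pooled ranked peaks. The median GC content was 45.36% in conservative peaks and 39.29% in all pooled ranked peaks, and its part in the motif shares was not tested. The motif was chosen after these peaks had been seen, so the count of 4 of 6 and their order by signal are a description. In all, 14 of the 234 pooled ranked peaks in the 9 windows held it, among them the top peak at dmd-9, whose signal of 70.96 was below that of both conservative peaks without a match. The share was 58.03% of the 436 conservative peaks whose summit lay within 200 bp of a tRNA, snoRNA (small nucleolar RNA) or snRNA (small nuclear RNA) gene, called small RNA genes below. It was 4.632% of the 1101 others. Of the 6 peaks, 3 had such a gene within that distance (the dmd-3 peak and both dmd-5 peaks), against 28.37% of the whole list. The dmd-10 upstream peak began with GTTCGATTC, but its nearest annotated small RNA gene was 212848 bp away. The part that small RNA genes have in the signal near the DM domain genes was not tested.

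**Figure D1:**
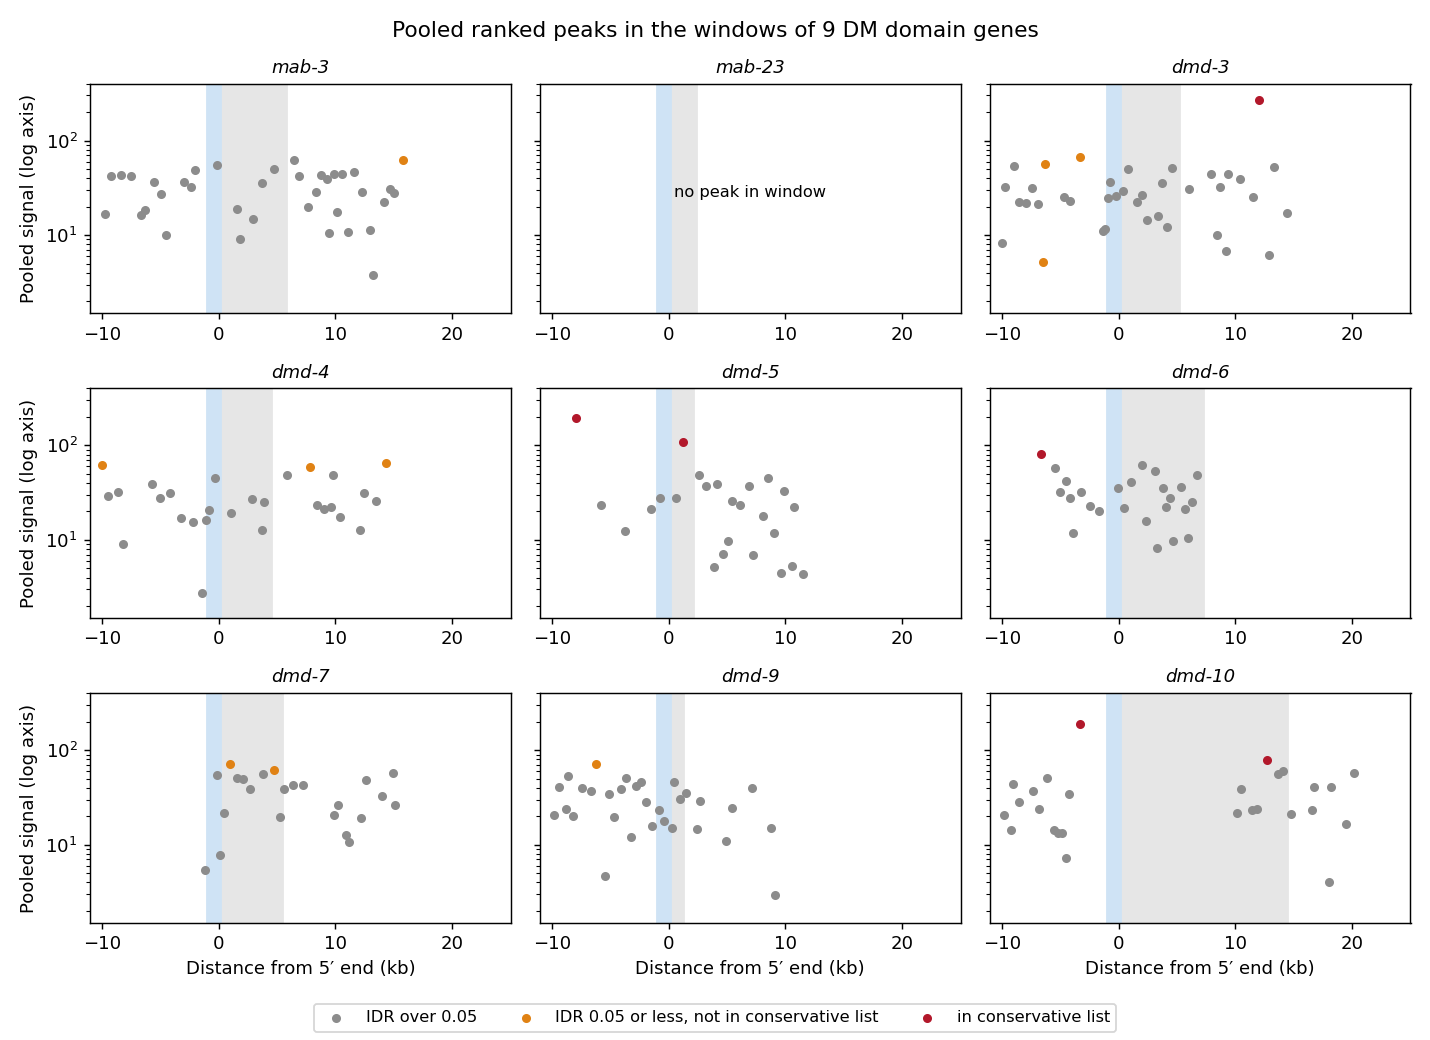
Pooled ranked peaks around each of the 9 genes, with distance from the annotated 5′ end in the direction of transcription on the x axis and pooled signal on a logarithmic y axis. Grey bands mark the gene and pale blue the promoter window, and colours mark peaks of the conservative list and peaks with an IDR of 0.05 or less. No conservative peak falls in a pale blue band, and the mab-23 panel holds no peak at all.

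The genes known for the male body were mab-3, mab-23 and dmd-3. The gene dmd-3 (chrV:19650025-19655251, minus strand), which acts in the shaping of the male tail tip, had the highest signal near any of the 9. Its peak had a signal of 267.2 in the pooled list (rank 71, IDR 6.312e-05), 119.6 in replicate 1 (rank 108) and 138.7 in replicate 2 (rank 88), and it was in both replicates' thresholded lists. Of windows of the same length centred on other genes, 1.514% had a top signal as high in the pooled list, 2.342% in replicate 1 and 1.399% in replicate 2. These windows overlap between neighbouring genes and are not independent. The shares are for 1 gene taken alone, while dmd-3 had the highest top of the 9. The summit lay 12063 bp from the 5′ end of dmd-3, past its 3′ end, in an intron of another gene, Y43F8C.7, and 1 bp from the snoRNA gene Y43F8C.22 (chrV:19643050-19643187, minus strand).

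Close to dmd-3 itself the signals were far lower. Its promoter window held 3 pooled ranked peaks, with signals of 36.37, 25.81 and 24.47 and IDRs of 0.2769 to 0.3914. Further upstream, a peak 3278 bp from the 5′ end had a pooled signal of 67.4 (IDR 0.04264) and 31.86 and 28.02 in replicates 1 and 2. Another, 6255 bp upstream, had 56.66 (IDR 0.04236) and 27.46 and 33.81 in the replicates. The remaining pooled peak with an IDR of 0.05 or less, 6463 bp upstream, had a signal of only 5.153, and it overlapped the same replicate peaks as the one before it, so its IDR is not separate evidence.

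The gene mab-3 (chrII:9732137-9738035, plus strand) had many weak peaks and no strong one. Its window held 37 pooled ranked peaks, and 18.17% of windows of the same length had as many or more. The highest signal was 62.95 in the pooled list, 38.78 in replicate 1 and 39.27 in replicate 2. Of other windows, 59.13% had a pooled top as high, so the mab-3 top lay below the median of 66.57. The pooled top was 6491 bp from the 5′ end, beyond the gene, and had an IDR of 0.06094, with 35.67 and 24.14 in the replicates. The peak of mab-3 with an IDR under 0.05 was in a coding exon of nos-3, 15748 bp from the 5′ end, with a pooled signal of 62.71 (IDR 0.02145). The nearest peak to the mab-3 start, at -126 bp, had a signal of 54.85, an IDR of 0.1673 and replicate signals of 19.24 and 33.47.

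The gene mab-23 (chrV:10633058-10635525, plus strand), which acts in male-specific differentiation in the tail, had almost no peaks. Its window of 22468 bp held 0 pooled ranked peaks, 1 in replicate 1 and 0 in replicate 2. Of 19944 windows of that length at other genes, 755 (3.786%) held no pooled peak, and 456 (2.286%) held none in replicate 2. The peak of replicate 1 had a signal of 21.11, rank 26723 and an IDR of 0.6996. The distance between the pooled summits on either side of the gene was 47683 bp, against a median of 593 bp between neighbouring summits, and 52 of 95226 such distances were as long. In the replicates it was 32453 bp and 46289 bp. This distance was measured only at mab-23, after its window had been seen to be empty. A gene is more likely to lie in a long gap than in a short one. The count of 52 of 95226 therefore does not measure how rare such a place is. The 3.786% of windows is the background for 1 gene taken alone, while mab-23 had the lowest count of the 9. The GC content of the mab-23 window was 32.43%, below the 34.25 to 38.2% of the other 8 windows, and its part in the result was not tested.

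**Figure D2:**
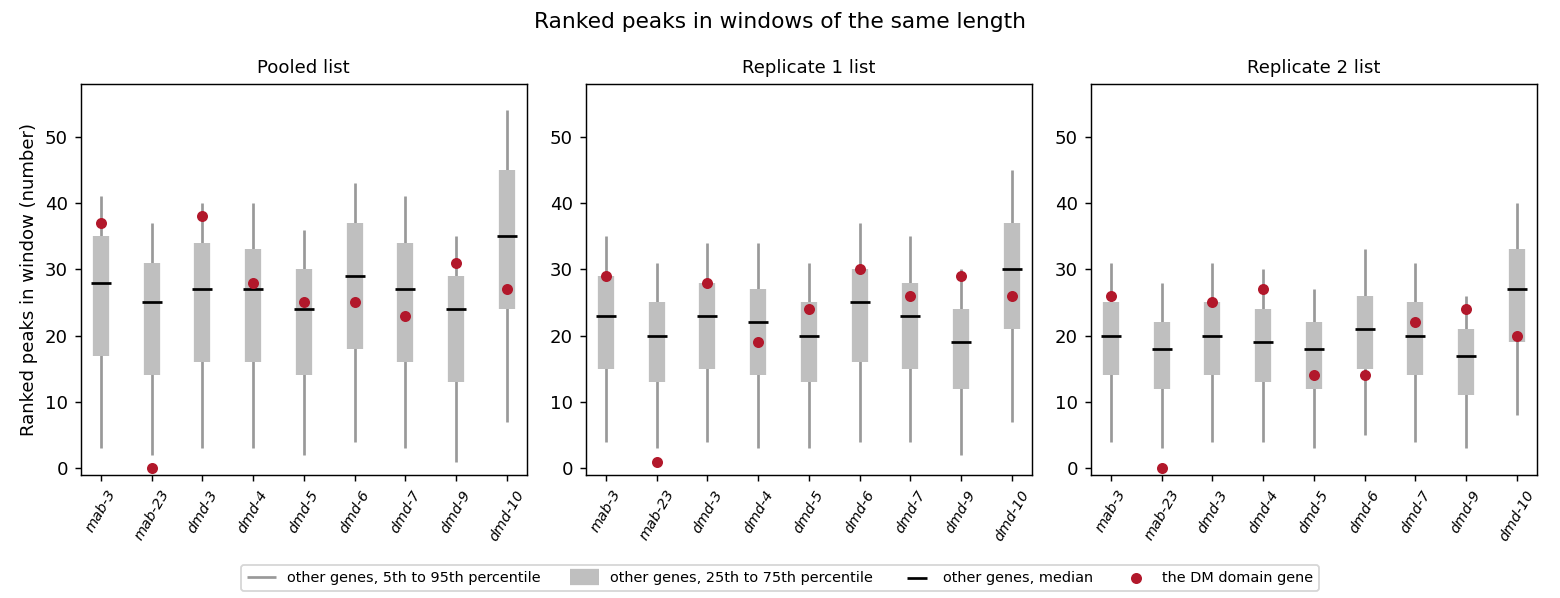
Number of ranked peaks in each gene's window (red dots) beside windows of the same length at other genes (thin grey line, 5th to 95th percentile; wide bar, 25th to 75th; dash, median), in the pooled, replicate 1 and replicate 2 lists. The mab-23 dots at 0, 1 and 0 lie below the thin line in each panel, while mab-3 (37 pooled peaks), dmd-3 (38) and dmd-9 (31) lie above the wide bar in the pooled panel.

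The genes with known roles in neurons that differ between the sexes were dmd-4 and dmd-5. The gene dmd-5 (chrII:5772054-5774220, minus strand), which acts in the AVG neuron of the male mating circuit, had 2 conservative peaks, both at tRNA genes. The upstream peak, 7947 bp from the 5′ end, had a signal of 193.7 in the pooled list (rank 162, IDR 0.0002115), 108.8 in replicate 1 (rank 138) and 76.59 in replicate 2 (rank 314). Of windows of the same length, 3.109% had a pooled top as high, 2.693% in replicate 1 and 5.42% in replicate 2. It was intergenic, in both thresholded lists, 45 bp from a tRNA-Gly gene (WBGene00022983, chrII:5782212-5782282, minus strand) and 353 bp upstream of K05F1.6. The noncoding RNA gene F10C1.16 was 42 bp from the summit, and linc-44, another noncoding RNA gene, also lay within 200 bp. The annotated start of K05F1.6 was thus much closer than that of dmd-5.

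The second peak was inside an intron of dmd-5, 1257 bp from the 5′ end, with its summit inside a tRNA-Leu gene (WBGene00022984, chrII:5772916-5772999, minus strand) and inside the noncoding RNA gene F10C1.18. Its signal was 108.4 in the pooled list (rank 607, IDR 0.001085), 60.71 in replicate 1 (rank 564) and 47.44 in replicate 2 (rank 927). It was in the thresholded list of replicate 1 and not in that of replicate 2, where its ranked IDR was 0.0296. The promoter window of dmd-5 held 1 pooled peak, at -748 bp, with a signal of 27.85 and an IDR of 0.6963.

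The gene dmd-4 (chrX:14857303-14861852, minus strand), which acts in phasmid sensory neurons, had 3 pooled peaks with an IDR of 0.05 or less, all outside the gene and none conservative. The highest, with a pooled signal of 65.53 (IDR 0.02143) and 34.12 and 31.96 in replicates 1 and 2, lay in a coding exon of egrh-1. A peak of 61.95 (IDR 0.0351), with 27.02 and 39.95 in the replicates, lay 43 bp inside F31F6.2. One of 58.83 (IDR 0.02375), with 32.8 and 32.22, lay 53 bp upstream of C27C12.4. The top of the dmd-4 window was ordinary, as 51.02% of other windows had one as high. Its promoter window held peaks of 44.82 (IDR 0.3365) and 20.64 (IDR 0.6963).

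**Figure D3:**
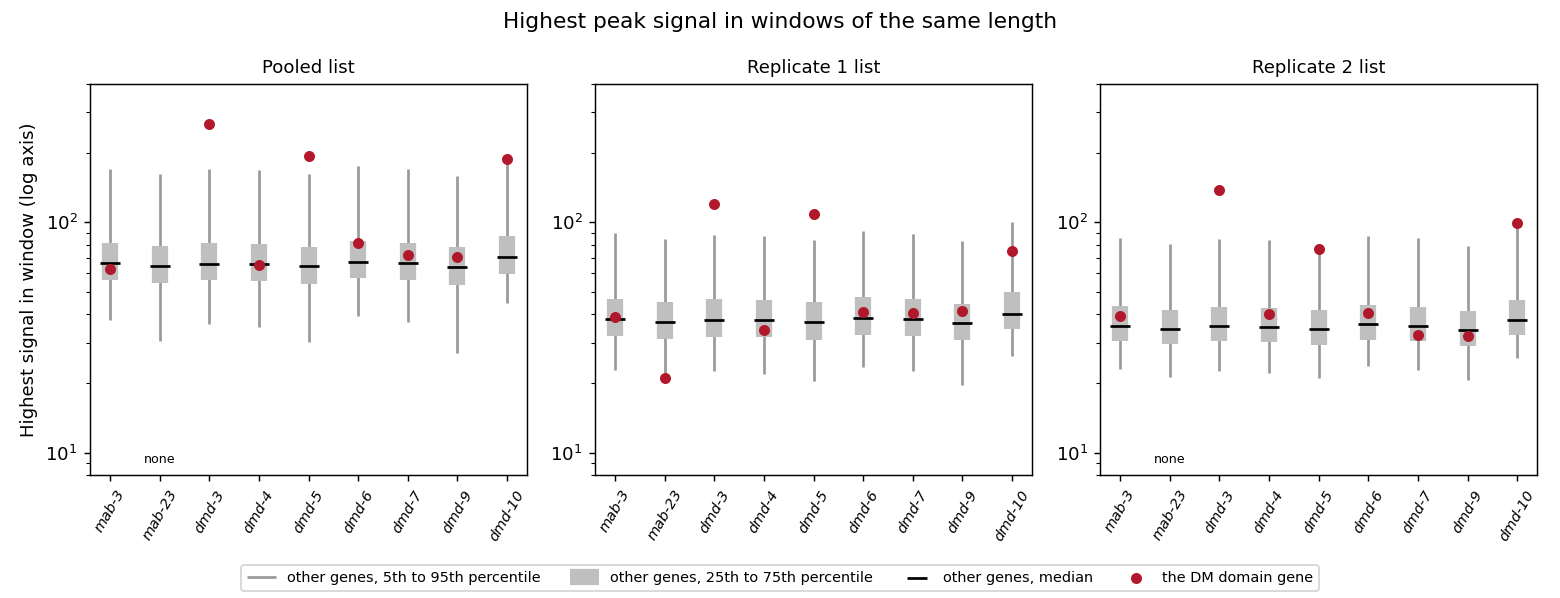
Highest peak signal in each gene's window (red dots, logarithmic axis) beside windows of the same length at other genes (thin grey line, 5th to 95th percentile; wide bar, 25th to 75th; dash, median), in the pooled, replicate 1 and replicate 2 lists. The dots of dmd-3 (267.2, 119.6 and 138.7) lie above the thin line in all 3 panels, and those of mab-3 and dmd-4 lie inside the wide bars.

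For dmd-6, dmd-7, dmd-9 and dmd-10 no role is stated here. The gene dmd-10 (chrV:13222116-13236607, minus strand) had 2 conservative peaks. The upstream peak, 3341 bp from the 5′ end and intergenic, had a signal of 189.2 in the pooled list (rank 172, IDR 0.0002832), 75.37 in replicate 1 (rank 347) and 99.37 in replicate 2 (rank 184). Among windows of the same length, 5.006% had a pooled top as high, 9.697% in replicate 1 and 4.53% in replicate 2. Of the 3 peaks in both thresholded lists, it alone had no small RNA gene within 200 bp, and the nearest annotated 5′ end was that of dmd-10. The other peak, in an intron 12742 bp from the 5′ end and 60 bp from the noncoding RNA gene F57B1.13, had a pooled signal of 78.01 (rank 1544, IDR 0.008172). Its replicate signals were 36.69 and 38.69, and it was in neither replicate's thresholded list. Alone among the conservative peaks of these windows, it was also missing from the optimal list, another list of the combined replicates.

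Between those peaks, most of dmd-10 was bare. Between a summit 3341 bp before its 5′ end and the next, 10110 bp past it, the pooled list was empty for 13451 bp, a stretch that covers the promoter window and most of the gene. The longest stretch without a summit in the window was 10746 bp in replicate 1 and 13869 bp in replicate 2, also across the 5′ end. Of windows of that length at other genes, 31.19% had a pooled stretch as long, so such a stretch was not rare.

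The gene dmd-6 (chrIV:14616603-14623963, plus strand) had 1 conservative peak, 6625 bp upstream. Its signal was 81.41 in the pooled list (rank 1285, IDR 0.009247), 35.08 in replicate 1 (rank 4685) and 40.18 in replicate 2 (rank 1773), and it was in neither thresholded replicate list. Of other windows, 26.17% had a top as high. The window also held a tRNA-Arg gene (WBGene00014324, chrIV:14611307-14611379, minus strand), 1329 bp from that peak, with 2 pooled ranked peaks within 200 bp, a highest signal of 58.01 and a lowest IDR of 0.3234. So 3 of the 4 small RNA genes in the 9 windows had a conservative summit within 200 bp, and in the genome 464 of 1087 (42.69%) did. Inside dmd-6, 15 pooled peaks lay past the promoter window, the highest number among the 9 genes, and 0 lay in the 10 kb downstream. With all summits inside the gene counted, dmd-6 had 13 in replicate 1. In replicate 2 it had 8, below the 11 of dmd-7. These counts were not set beside other genes of that length. The longest stretch without a summit in the dmd-6 window was 10641 bp in the pooled list and 10582 bp in replicate 2. It was 3431 bp in replicate 1, so the empty downstream flank was not shared by replicate 1. Among windows of the same length at other genes, 36.1% had a pooled stretch as long, and 29.53% did in replicate 2.

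The gene dmd-7 (chrV:6246931-6252458, plus strand) had its highest pooled peak in the gene itself, while the highest of replicate 1 was before its start. The pooled top, 951 bp from the 5′ end in the 5′ UTR and overlapping the noncoding RNA gene K08B12.7, had a pooled signal of 72.07 (IDR 0.02222), with 33.13 and 32.53 in replicates 1 and 2. The RefSeq annotation starts dmd-7 at 6249172, and the summit lay 1290 bp upstream of that start, so its place depends on the annotation. A peak in a coding exon had 61.91 (IDR 0.03455), with 37.5 and 26.89 in the replicates. The peak at -170 bp from the Ensembl start had 54.87 (IDR 0.4448), with 40.32 and 26.31, and the first of these was the highest signal of replicate 1 in the window. Of other windows, 38.78% had a pooled top as high as dmd-7.

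The gene dmd-9 (chrIV:3253261-3254543, minus strand), the shortest of the 9, had its top peak in a coding exon of T26C12.1, 6187 bp upstream. Its signal was 70.96 in the pooled list (IDR 0.02028), 41.2 in replicate 1 and 28.7 in replicate 2. Such a top was met in 35.61% of other windows. The promoter window of dmd-9 held peaks of 23.11 (IDR 0.3347) and 17.94 (IDR 0.6963).

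Over the 9 windows there were 234 pooled ranked peaks, 212 in replicate 1 and 172 in replicate 2. Of the 234, 16 (6.838%) had an IDR of 0.05 or less, against 4.958% in the whole list. At least 1 lay near 8 of the 9 genes, where 57.8% of other genes had one. No interval was computed for the share of 8 of 9, so no excess is read from it. None of the 16 was in a promoter window, where 6.28% of other genes had one. A pooled summit of any IDR lay in the promoter window of 7 of the 9, all but mab-23 and dmd-10, against 65.8% of other genes. Those 12 promoter peaks had signals of 7.775 to 54.87. Of the 16 peaks, 4 were inside one of the 9 genes, in dmd-5, dmd-7 (2 peaks) and dmd-10.

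The replicates were set side by side for these peaks. Of the 234, 137 (58.55%) overlapped a peak in both ranked replicate lists, and the replicate signals of the 137 had a Spearman rho of 0.3997. Without the 6 conservative peaks rho was 0.3172 over 131. Some pooled peaks share a replicate peak, so this describes the points only. Both replicates put dmd-3, dmd-5 and dmd-10 highest, with dmd-5 above dmd-10 in replicate 1 and below it in replicate 2. The tops of the 5 other genes with a pooled peak, 32.08 to 41.2 over both replicates, changed order between the replicates.

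**Figure D4:**
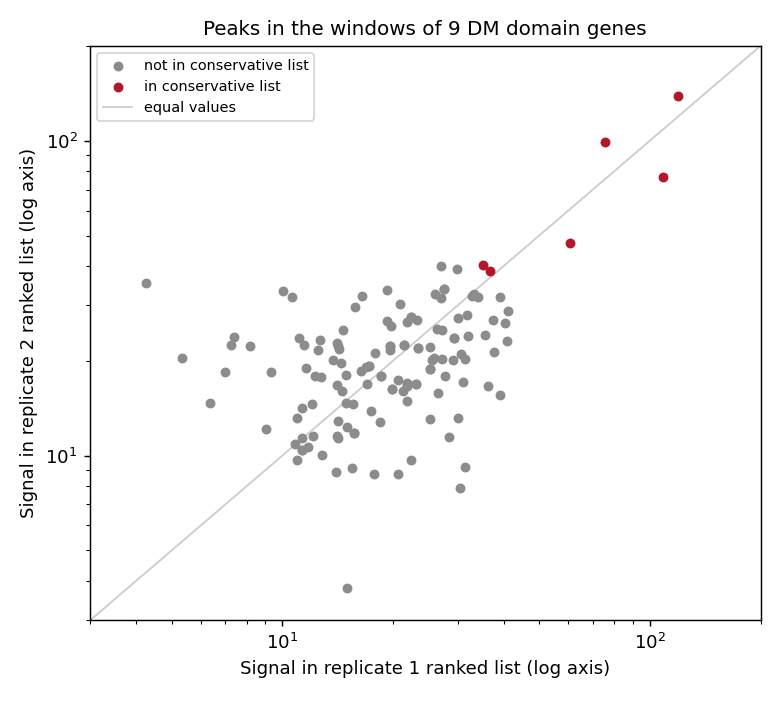
Signal in replicate 1 (x axis) and replicate 2 (y axis), both logarithmic, for the 137 pooled ranked peaks of the 9 windows with a peak in both ranked lists, with the 6 conservative peaks coloured and a line of equal values. The dmd-3 peak (119.6 and 138.7) lies at the upper right, and the conservative peaks of dmd-6 (35.08 and 40.18) and the dmd-10 intron (36.69 and 38.69) lie at the edge of the cloud of other peaks.

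Letters of the DM domain binding site were counted in the same peaks. ACAATGT, whose reverse complement is the core of sites bound by DM domain proteins, was searched on both strands. It was found in 9 of the 234 window peaks (3.846%), against 4.616% of all pooled ranked peaks and 3.123% of conservative peaks, and in none of the 6 conservative peaks here. It was in 0 of the 9 promoter windows, against 20.45% of all promoter windows. The exact 95% interval for 0 of 9, up to 33.63%, holds that value, so no lack is read from it. TGTTGC, letters within the site bound by MAB-3 and also searched on both strands, was in 33 of the 234 (14.1%), against 13.88% of all ranked peaks, and in the promoter windows of mab-23 and dmd-6, against 43.49% of all. GTTCGANNC was in 14 of the 234 (5.983%), against 2.918% of all ranked peaks, and in the promoter windows of dmd-3 and dmd-5, against 7.581% of all. It was chosen after the conservative peaks here had been seen, and those with a match are among the 14. Its share is thus a description that cannot be read on equal terms with those of ACAATGT and TGTTGC. All 3 motifs were chosen with earlier results of these data known. None of the 3 motifs holds another within it, and a missing match says only that the letters are not in that window.

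Genes that act with DM domain genes were counted the same way. Of 17 sex determination genes, 4 (23.53%) had a conservative peak in their window, against the 26.4% of other genes. They were xol-1, an early switch of sex determination (174.3), fem-2, a protein phosphatase (126.9), sdc-1, which acts in dosage compensation (113.1), and tra-2, a membrane receptor (95.63). None of the 17 had one in the promoter window, where 2.55% of other genes did. A second list held 21 genes (22 names, 1 without a match in the annotation) known as regulators, partners or targets of DM domain genes. Of these, 9 (42.86%) had a conservative peak in the window, against 26.4% of other genes, and 1 (4.762%) in the promoter window, against 2.55%. No interval was computed, and the lists were chosen with earlier results of these data known, so no excess is read from these shares. The second list also holds a noncoding RNA gene, lep-5, while the other genes are all protein-coding. The promoter peak was that of lep-2, a makorin protein that acts on the timing of male tail development, with a signal of 75.7. The yolk protein gene vit-6 had the highest signal among those with a peak, 242.6, and vit-1 to vit-5 had no conservative peak. At vit-6, lin-41, lin-32, lep-5, xol-1 and sdc-1 the top peak lay within 200 bp of a small RNA gene.

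The tagged gene dmd-8 (chrV:334601-336450, minus strand) had 9 pooled ranked and 3 conservative peaks in its window, with a top of 108.3, and none in its promoter window. The nearest of the 9 genes on its chromosome, dmd-7, was 5910481 bp away. The peak counts and top signal of the dmd-8 window were not set beside those of other genes. The fosmid transgene also carries dmd-8, and the part of the transgene in these peaks was not tested. No occupancy of dmd-8 by its own protein is therefore read from them.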

How the data were processed

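Peak lists were deposited by the authors for each of the 2 replicates and for the replicates combined, on assembly ce11 per the labels. For the aligner and the peak caller: not given in the sources used here. The signal column is the authors' deposited peak caller value. The score column and the IDR column of the ranked lists, a −log10 value read as a score, are the authors' too. The 7 lists used are the conservative and optimal lists, the pooled ranked list and each replicate's thresholded and ranked lists. Thresholded replicate lists were called per replicate, and the conservative list rests on both replicates.

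Peaks were placed by their summit, in 1-based positions, in windows from Ensembl release 115 genes. Sequences and tRNA isotypes came from the RefSeq annotation of that assembly, and the peak ends lay inside its chromosome lengths. A replicate value is that of an overlapping ranked peak (1 bp or more). Other genes exclude the 9 and dmd-8. Windows of the same length were centred on other genes. The members, gene lists and motifs were chosen with earlier results of these data known. Every one of the 9 genes was named, with the genes at its thresholded peaks and at its highest pooled peak, and genes of the lists with a promoter peak. Other listed genes with a peak, and the genes at peaks of low IDR, were named after their values were seen. Shares of the 9 genes were set beside those of other genes. Exact 95% intervals, which cover counting only, were computed for the conservative shares in the window and in the promoter window. The other shares have no interval. No p-value was computed, and with 1 group conditions could not be compared. The scripts were tested on simulated data and ran in Python 3.11.15 with matplotlib 3.10.9, scipy 1.17.1, pandas 2.3.3 and numpy 2.4.6. Alternatives were other lists, flanks, overlap, IDR limits and backgrounds.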

Additional observations from a re-analysis of the deposited data

How the results depend on the processing

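The count of 4 genes with a conservative peak and 6 such peaks was 4 and 5 with the optimal list, and 4 and 6 with an overlap of 1 bp. With 5 kb flanks it was 2 genes and 3 peaks against 16.99% of other genes, and with 20 kb flanks 5 and 7 against 41.79%. Without peaks at small RNA genes it was 2 genes (dmd-6 and dmd-10) and 3 peaks against 20.42%, and with signals at or above the list median 3 and 4 against 15.09%. From 1 replicate's list alone it was 3 genes and 3 to 4 peaks against 11.2 to 11.96%. The share of other genes was 27.21% with the optimal list, 24.83% on the same chromosomes and 28.36% in windows of the member length. The 16 peaks with an IDR of 0.05 or less were 4 in each replicate's list (from 4 to 4), 7 with 5 kb flanks, 6 at an IDR of 0.01 and 26 at 0.1. The median over the 9 genes of the highest signal, 72.07 with mab-23 counted as lowest, was 62.95 with 5 kb flanks and 81.41 with 20 kb. It was 39.95 to 40.96 in the replicate lists, whose signals are on another scale. No paired analysis was possible because there was a single group of 2 replicates. Depth is unknown from peak lists, so a gene without peaks, such as mab-23, is one without a peak at this depth.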
